A study of Mus musculus with 6 samples.

Results

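The genes of glucose uptake, glycolysis, pyruvate entry and the pentose phosphate pathway were followed in mouse bone marrow cells with and without Txnip. They were chosen by name: 43 gene symbols, which match 44 of the 31253 features in the count files, since 2 features carry the symbol Aldoa. One of these 2 Aldoa features was too low to test, and Aldoa values below are those of the other. Droplet-based single-cell RNA sequencing covered 3 Txnip-KO (knock-out) and 3 WT (wild-type) bone marrow samples, whose cells were flushed from bones, enriched and sorted by flow cytometry. The labels do not name the sorted population, the strain or age of the mice, or the part of Txnip that was deleted. Whether each sample is a different animal is not stated either, and p-values therefore reflect variation between these libraries that could be technical. Any pair of samples shared 6 to 18 cell barcodes among its kept cells.

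Glucose enters a cell through transporters of the SLC2A family and is trapped by hexokinases. Glycolysis then turns it into pyruvate, which is either reduced to lactate or carried into mitochondria, where the pyruvate dehydrogenase complex is held back by its kinases. The pentose phosphate pathway branches off after the hexokinase step and yields NADPH, along with ribose phosphate that PRPP synthetases activate for nucleotide synthesis. Several steps have isoform genes that differ between blood cell types. Txnip encodes an arrestin-family protein that limits glucose uptake, in part by drawing glucose transporters from the cell surface.

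The promoter windows of 4 members are shown because they come from members that moved in opposite directions with the genotype: Pfkfb3 and Pdk1 were higher and Hk2 and Ldha lower in Txnip-KO cells. The first window listed for each member is shown. Each window runs from 250 bases before to 50 bases after an annotated start (RefSeq, build GRCm38.p6), 5′ to 3′ on the gene's strand. Capitals mark the letters ACGTG and GCGTG (the 2 forms of the core of hypoxia response elements) and CACGTG (the E-box bound by Myc and Mlx partners, which holds ACGTG), read on both strands. Their positions are Pfkfb3 chr2:11553880-11554179 (minus strand), Pdk1 chr2:71872974-71873273 (plus strand), Hk2 chr6:82774405-82774704 (minus strand) and Ldha chr7:46845554-46845853 (plus strand).
Pfkfb3: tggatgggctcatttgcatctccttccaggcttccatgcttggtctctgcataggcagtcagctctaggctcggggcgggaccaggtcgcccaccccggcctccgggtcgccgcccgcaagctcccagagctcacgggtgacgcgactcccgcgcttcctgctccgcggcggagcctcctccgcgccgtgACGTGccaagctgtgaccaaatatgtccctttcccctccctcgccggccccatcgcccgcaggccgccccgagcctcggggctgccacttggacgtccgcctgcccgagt
Pdk1: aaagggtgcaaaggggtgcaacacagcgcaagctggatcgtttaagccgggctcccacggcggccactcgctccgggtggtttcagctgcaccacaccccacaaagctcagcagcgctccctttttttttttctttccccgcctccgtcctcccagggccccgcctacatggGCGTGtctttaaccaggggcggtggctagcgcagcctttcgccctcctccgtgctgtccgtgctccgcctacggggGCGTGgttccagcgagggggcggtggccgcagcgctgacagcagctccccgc
Hk2: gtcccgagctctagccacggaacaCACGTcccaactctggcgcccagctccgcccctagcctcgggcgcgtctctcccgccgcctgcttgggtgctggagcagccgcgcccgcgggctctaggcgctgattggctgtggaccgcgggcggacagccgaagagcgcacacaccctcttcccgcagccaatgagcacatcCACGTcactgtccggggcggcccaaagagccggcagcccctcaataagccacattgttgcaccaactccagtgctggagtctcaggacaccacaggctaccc
Ldha: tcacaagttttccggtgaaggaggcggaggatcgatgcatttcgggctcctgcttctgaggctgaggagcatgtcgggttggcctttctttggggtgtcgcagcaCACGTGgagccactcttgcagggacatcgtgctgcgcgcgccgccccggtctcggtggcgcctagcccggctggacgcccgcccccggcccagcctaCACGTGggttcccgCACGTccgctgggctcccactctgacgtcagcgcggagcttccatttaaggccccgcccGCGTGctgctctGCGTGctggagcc
The Ldha window held 2 matches to CACGTG, 5 to ACGTG and 2 to GCGTG. Each CACGTG site counts as 2 of the ACGTG matches, 1 on each strand. The Hk2 window held 2 matches to ACGTG, the Pfkfb3 window 1, and the Pdk1 window none to ACGTG or CACGTG but 2 to GCGTG. Each of these members except Hk2 has a second window. That of Pfkfb3, chr2:11502041-11502340 on the minus strand, held 1 match to CACGTG, 2 to ACGTG and 2 to GCGTG, so its matches depend on the start taken. Both of these ACGTG matches are the CACGTG site, read on each strand. The second window of Ldha held only 2 matches to GCGTG and that of Pdk1 none of the 3 motifs. Windows were found for 42 of the 43 members, and Slc2a3 was not among them. A match to CACGTG was found for 6 of the 42, to ACGTG for 19 and to GCGTG for 31, many members having more than 1 start. Counted by window, which is the count comparable with all windows, 6 of the members' 63 windows held CACGTG, 23 held ACGTG and 37 held GCGTG. Over all 32851 windows of this length the shares were 7.15% for CACGTG, 19.6% for ACGTG and 32.4% for GCGTG. The matches are letters in a window and say nothing of binding.

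In the GENCODE M21 annotation (GRCm38) Hk2 lies at chr6:82725025-82774454, Pfkfb3 at chr2:11471433-11554077, Pdk1 at chr2:71873224-71903858 and Mpc1 at chr17:8282904-8297661, all protein-coding genes. The sources used here do not give the build behind the counts.

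Txnip itself had 585, 666 and 28 UMIs (unique molecular identifiers, 1 per captured transcript) in Txnip-KO 1, 2 and 3, against 19607, 14903 and 18717 UMIs in WT 1, 2 and 3. Scaled by total UMIs this was 10.8, 9.60 and 0.459 CPM (UMIs of the gene scaled to a common library total) in Txnip-KO samples and 306, 209 and 269 CPM in WT samples, a log2 fold change of -5.34 (adjusted p = 0.0024). The deposited files held 48277 barcodes, of which 41513 were kept, with 6023 to 7827 kept cells per Txnip-KO sample and 6190 to 7020 per WT sample. The median depth was 6932 to 8187 UMIs per cell in Txnip-KO samples and 8918 to 9176 in WT samples. At least 1 UMI of the 6 division genes was found in 27.0 to 33.6% of Txnip-KO cells and in 37.5 to 42.1% of WT cells. Cells were assigned to types by marker genes that include no member of the pathway. The gate placed 57.2% of kept cells, and 13 types had at least 20 cells in every sample.

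Over all kept cells, 21 of the 43 members passed the test between genotypes, 6 higher and 15 lower in Txnip-KO cells. The test was edgeR's quasi-likelihood test on UMIs summed per sample, with Benjamini-Hochberg adjustment over all genes tested and a threshold of 0.05. By the same test 41.1% of all 14648 genes passed, 21.8% higher and 19.3% lower, so the members' 21 of 43 is not far above that background. The members' median log2 fold change was -0.16, against 0.04 over all genes. The higher members were the regulators Pfkfb3 and Pfkfb4, the kinases Pdk1 and Pdk2, the transporter Slc2a3 and the enolase Eno2. The lower ones included Hk2, Aldoc, Slc2a1, both subunits of the mitochondrial pyruvate carrier, and Pgls, Tkt and Taldo1 of the pentose phosphate pathway. Sums over all kept cells cannot tell fewer cells of a type from less RNA per cell. When every sample was cut to equal numbers of gated cells per tested type, 2429 cells per sample, 25 members passed and Eno2 was not tested. The share of all genes that passed in that setting is not given, so the 25 cannot be set against a background. That setting drops all ungated cells and keeps differences within types, so its count cannot tell these apart.

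**Figure D1:**
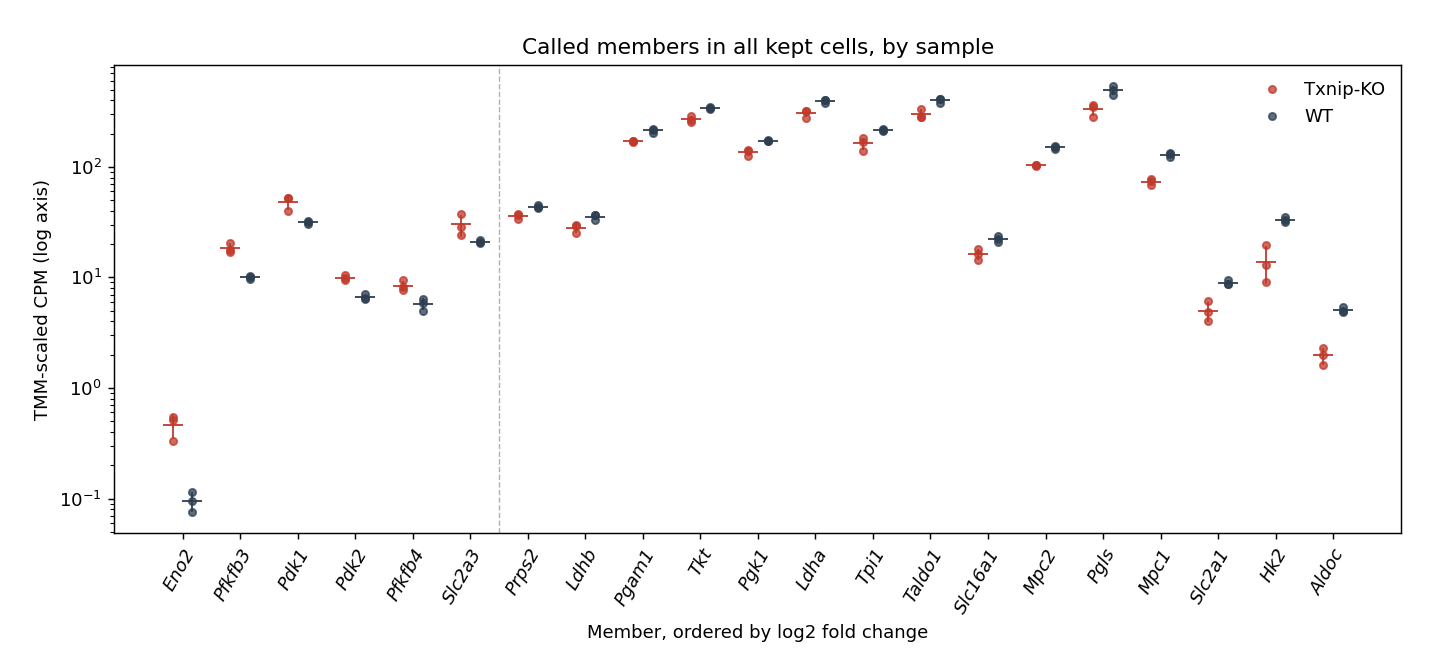
TMM-scaled CPM on a log axis for the 21 members that passed the test over all kept cells, ordered by log2 fold change. Points are single samples, Txnip-KO on the left and WT on the right of each pair, and bars give the mean and SD of 3 samples. The 6 members left of the dashed line were higher in Txnip-KO cells. Mpc1 and Aldoc, like every other member shown, have no overlap between groups. The share of all genes without overlap is not given.

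Within the 13 types, 125 of 424 tested pairs of member and type passed, 31 higher and 94 lower in Txnip-KO cells. Direction was the same for all 125 under every alternative processing that tested them, and 50 pairs passed under every such alternative. Some of the 50 were tested in 14 of 15 alternatives. Shares of all genes differed widely between types, as did cell numbers, so the members' counts are given beside them. CPM of called members per sample and type are given below where groups do not overlap. Lack of overlap there follows from that choice and adds no support to a call. In HSC-like cells (haematopoietic stem cells) 2 of 37 members tested were higher and 7 lower, where 11% of all genes passed (5.46% higher, 5.57% lower). In lymphoid-primed progenitor-like cells 6 of 40 were higher and 16 lower, where 42.6% of all genes passed (20.6% higher, 22% lower). Granulocyte-monocyte progenitor-like cells had 4 of 39 higher and 15 lower, where 35.5% passed (16.5% higher, 19% lower). Erythroid-like cells had 6 of 38 higher and 8 lower, where 30.8% passed (14.9% higher, 15.9% lower). Megakaryocyte lineage-like cells had 4 of 36 higher and 9 lower, where 19.7% passed (8.89% higher, 10.8% lower). In NK-like cells 2 of 36 were higher and 15 lower, where 28.2% passed (13.8% higher, 14.4% lower). In B lineage-like cells 0 of 27 were higher and 9 lower, where 17.3% passed (9.54% higher, 7.77% lower). Plasmacytoid dendritic-like cells had 3 of 31 higher and 6 lower, where 21% passed (10.4% higher, 10.5% lower). Basophil or mast-like cells had 1 of 32 higher and 5 lower, where 8.1% passed (3.64% higher, 4.46% lower). Monocyte lineage-like cells had 2 of 35 higher and 2 lower, where 8.31% passed (3.95% higher, 4.36% lower), and innate lymphoid-like cells 1 of 32 higher and 2 lower, where 4.92% passed (2.5% higher, 2.42% lower). No member passed in neutrophil lineage-like cells (20 tested), where 2.11% of all genes passed (1.29% higher, 0.817% lower), or in T-like cells (21 tested), where 0.966% passed (0.601% higher, 0.366% lower). There edgeR gave an unadjusted p under 0.05 for 5 and 4 members, and DESeq2's Wald test called 0 in each. The most called in any alternative were 1 in neutrophil lineage-like and 4 in T-like cells. The 4 were Mpc2, Eno1, Ldhb and Taldo1, without WT 2, and the 1 was Hk2, without doublet removal.

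The members' median log2 fold change was below 0 in 12 of the 13 types and was lowest in B lineage-like (-0.40) and NK-like cells (-0.31), where the medians over all genes were 0.03 and 0.02. It was 0.07 in neutrophil lineage-like cells, against 0.02 over all genes. Pfkfb3 was above 0 in all 10 types in which it was tested and passed in 8. Hk2 was below 0 in all 9 types tested and passed in 7, Mpc1 below 0 in all 13 and passed in 9, and Ldha below 0 in all 13 and passed in 6.

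**Figure D2:**
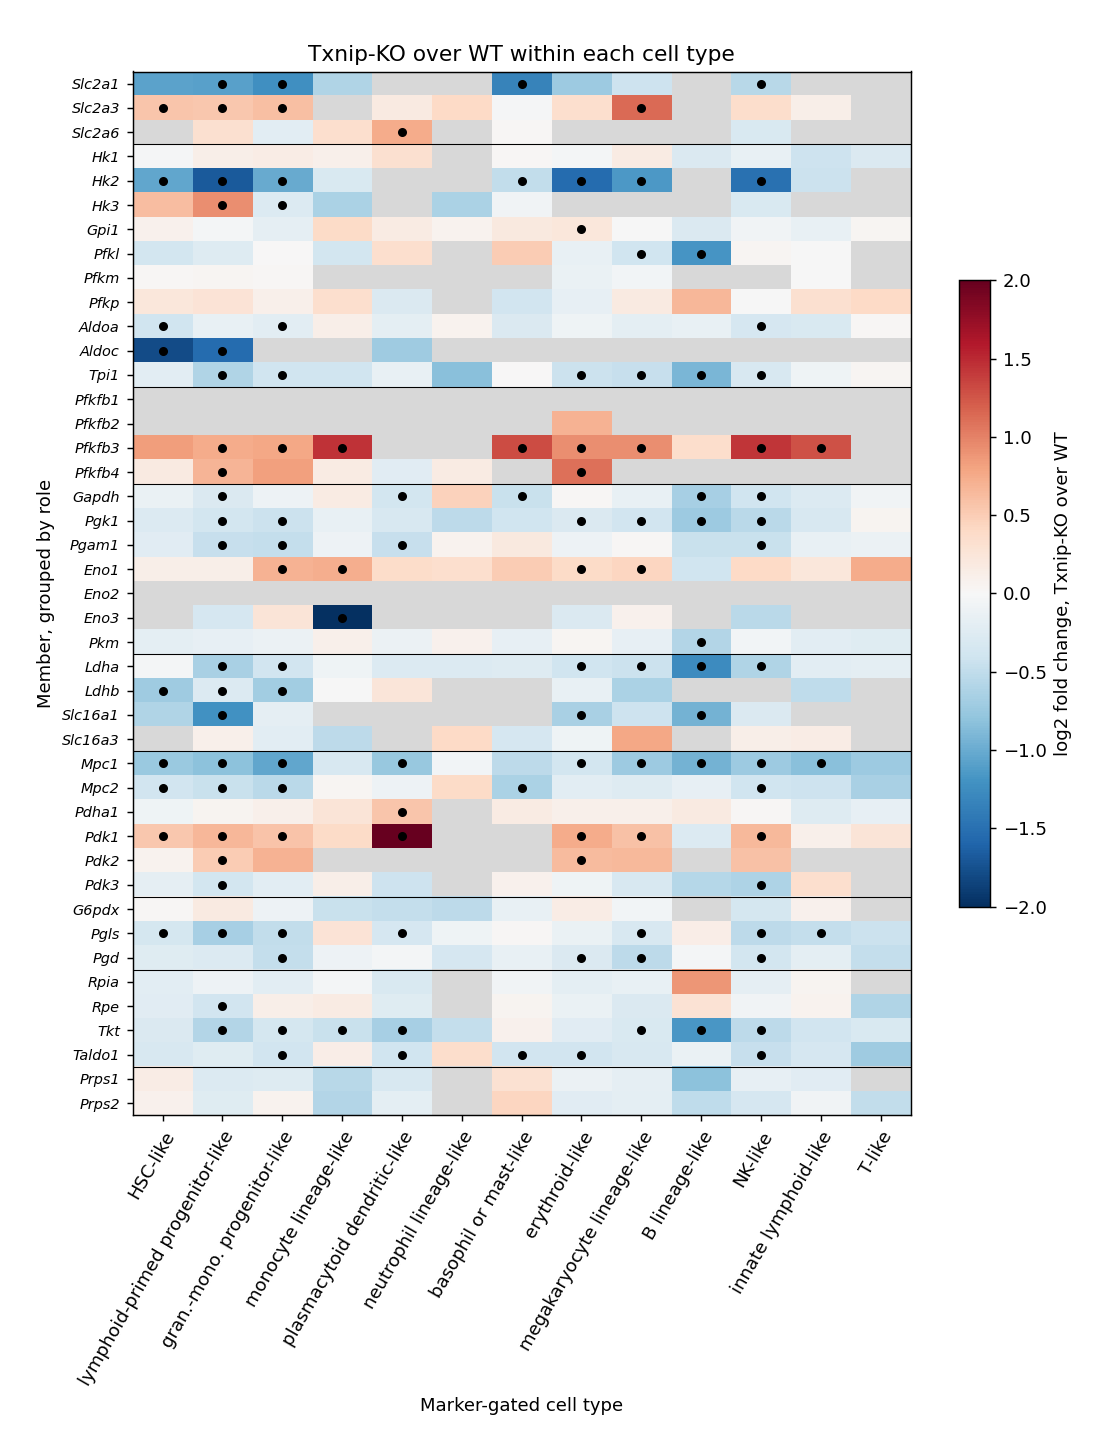
Log2 fold change, Txnip-KO over WT, for each member (rows, grouped by role) in each marker-gated cell type (columns); red is higher and blue lower in Txnip-KO cells, and grey was not tested. Black dots mark the 125 pairs that passed. The rows of Hk2, Mpc1 and Ldha are blue and that of Pfkfb3 is red wherever tested.

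In WT cells the isoform genes were used unevenly between types. Each type was compared with the mean of the other 12 in 1 fit over the WT samples. Of 40 members tested, 18 to 31 passed per type: 18 in T-like cells (18.3% of all genes passed), 20 in innate lymphoid-like (31.7%), 22 in NK-like (53.9%), 23 each in neutrophil lineage-like (39.9%) and megakaryocyte lineage-like (57.7%), 24 in B lineage-like (41.3%), 27 in HSC-like (41.1%), 28 each in monocyte lineage-like (48.3%) and erythroid-like (61.2%), 30 each in basophil or mast-like (54.2%), granulocyte-monocyte progenitor-like (58.4%) and plasmacytoid dendritic-like (46%), and 31 in lymphoid-primed progenitor-like cells (54.9%). For 9 of these members a type held no UMI in any WT sample, and their fold changes are not given, since they would depend on the count added before the logarithm. The calls of these 9 members, 42 higher and 4 lower over the types, remain in the counts above and rest on the same zeros. In neutrophil lineage-like cells the median over all genes lay at -1.02, so levels there are relative to that shift.

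**Figure D3:**
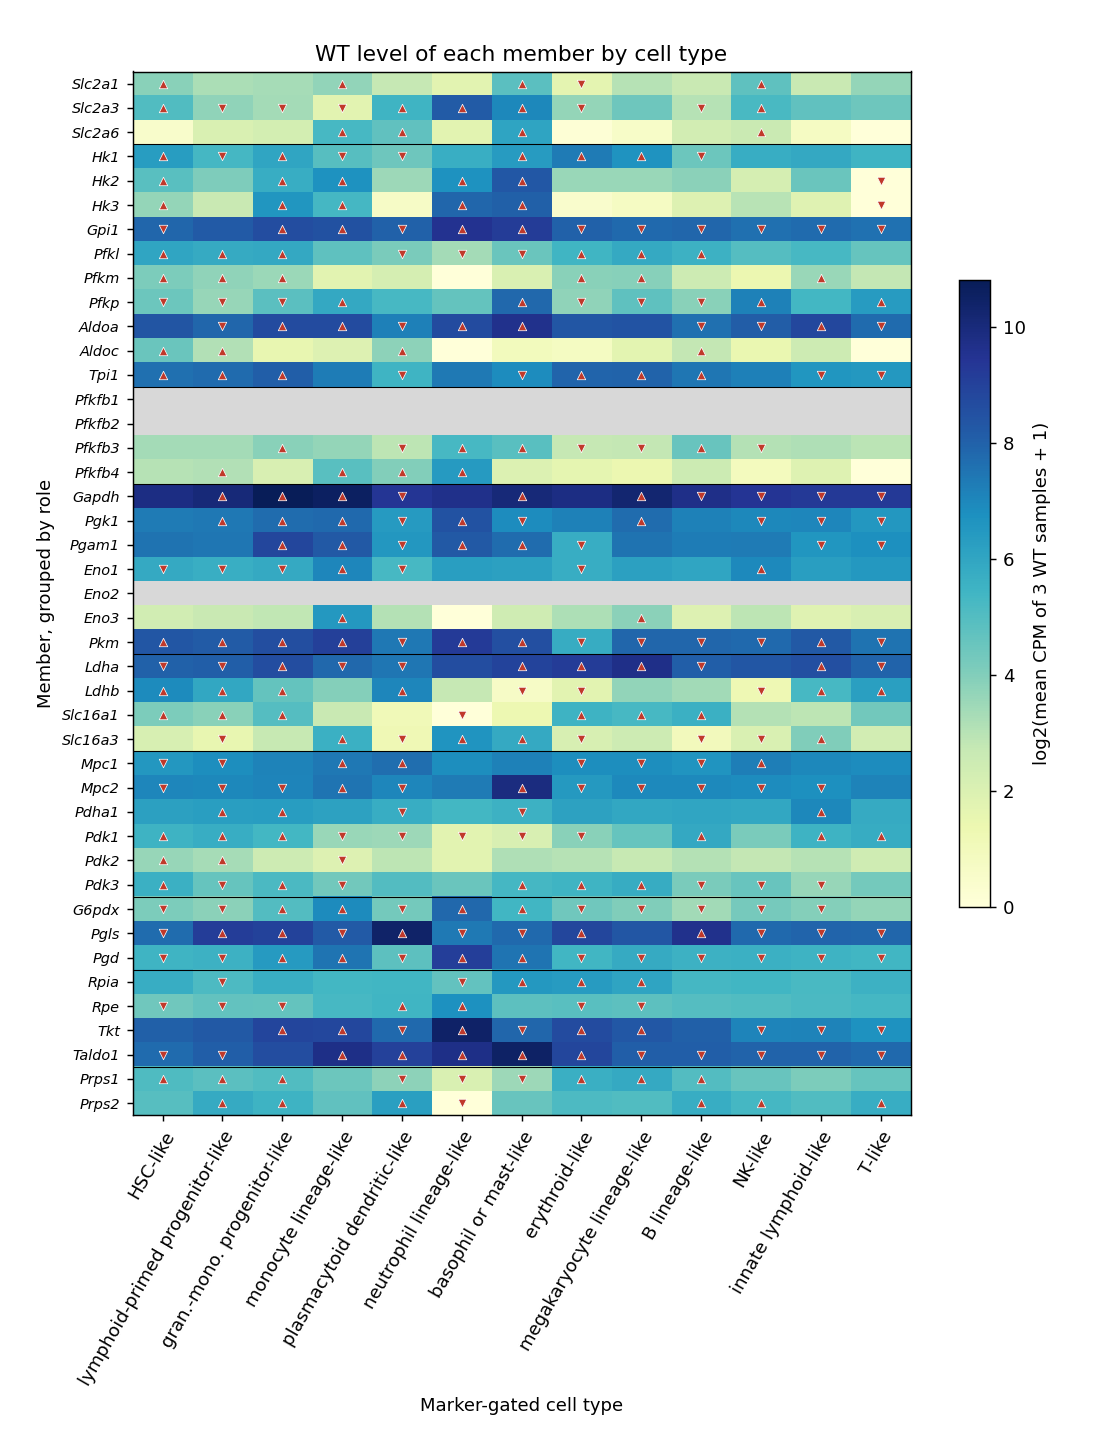
Level of each member in WT cells by type, as log2 of the mean CPM of 3 WT samples plus 1. Upward triangles mark types that were higher and downward triangles types that were lower than the mean of the other types. Grey rows were too low to test. Triangles include those of the 9 members that held no UMI in some type, whose calls rest on those zeros. Rows compare types for 1 gene: Hk2 and Hk3 are darkest in basophil or mast-like cells and Hk1 in erythroid-like cells.

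Hexokinase genes had different high types in WT cells. Hk1, the widely used hexokinase, was highest in erythroid-like cells at 159 ± 6.92 CPM (SD, n = 3 WT samples), against a mean of 52.9 CPM over the other types (log2 fold change 1.74). Hk2, the inducible hexokinase that binds mitochondria, was highest in basophil or mast-like cells at 311 ± 15.8 CPM, against a mean of 31.1 CPM over the others. Hk3, a hexokinase of myeloid cells, was likewise highest there at 264 ± 19.8 CPM (others 33.4 CPM), with neutrophil lineage-like cells within the spread of that value at 236 ± 34.6 CPM and granulocyte-monocyte progenitor-like cells lower at 94.7 ± 1.60 CPM. Hk2 and Hk3 had no UMI in T-like cells of any WT sample. As a share of hexokinase UMIs in WT cells, Hk1 made up 93.4% ± 0.790 in erythroid-like cells, 82.9% ± 3.67 in NK-like cells and 12.3% ± 0.394 in basophil or mast-like cells.

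Other isoforms had their own high types in WT cells. Aldoc, the minor aldolase gene here, was highest in HSC-like cells at 21.5 ± 4.14 CPM (others 3.40 CPM), followed by plasmacytoid dendritic-like cells at 12.6 ± 0.651 CPM. Aldoa still held 94% ± 0.599 of aldolase UMIs in WT HSC-like cells. Eno3, the enolase of muscle, was highest in monocyte lineage-like cells at 88.5 ± 90.6 CPM, a mean that WT 1 raised. Pfkfb3 and Pfkfb4 make and break fructose 2,6-bisphosphate, the activator of phosphofructokinase. Pfkfb3 averaged 37.2 ± 15.2 CPM in neutrophil lineage-like cells (others 11.2 CPM, log2 fold change 1.94) and 28.1 ± 1.86 CPM in basophil or mast-like cells (others 11.9 CPM, 1.49), and Pfkfb4 in neutrophil lineage-like cells at 84.7 ± 22.7 CPM (others 6.29 CPM). Pfkp, the platelet-type phosphofructokinase, reached 226 ± 2.64 CPM in basophil or mast-like and 140 ± 12.1 CPM in NK-like cells, with log2 fold changes of 2.87 and 2.12. Ldhb, the lactate dehydrogenase subunit of oxidative tissues, was highest in plasmacytoid dendritic-like (129 ± 9.36 CPM) and HSC-like cells (119 ± 15 CPM), with log2 fold changes of 3.44 and 3.30, while Ldha peaked in megakaryocyte lineage-like cells at 816 ± 20.1 CPM (1.36).

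The pentose phosphate genes also had clear peaks in WT cells. G6pdx, the first enzyme of the oxidative branch, was highest in neutrophil lineage-like cells at 227 ± 20.2 CPM (others 27.2 CPM, log2 fold change 3.47), and so were Pgd at 551 ± 47.4 CPM (3.25) and the transketolase gene Tkt at 1385 ± 130 CPM (2.47). Pgls, the lactonase between them, was instead highest in plasmacytoid dendritic-like cells at 1343 ± 38.6 CPM (others 353 CPM, 2.09). Taldo1, the transaldolase, and Mpc2, a subunit of the mitochondrial pyruvate carrier, peaked in basophil or mast-like cells at 1464 ± 15.7 CPM (2.04) and 965 ± 50.7 CPM (2.93). Prps1 was highest in megakaryocyte lineage-like cells at 56.6 ± 7.41 CPM (1.58) and Prps2 in plasmacytoid dendritic-like cells at 74.5 ± 10.0 CPM.

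Among the glucose transporters, Slc2a3 was higher and Slc2a1 lower in Txnip-KO cells. Slc2a1, the widely expressed carrier GLUT1, had 6.07, 4.04 and 4.84 CPM in Txnip-KO 1, 2 and 3, against 8.66, 8.78 and 9.46 CPM in WT 1, 2 and 3 (log2 fold change -0.85, SE 0.15, adjusted p = 0.00397). Slc2a3, the high-affinity carrier GLUT3, had 37.7, 24.3 and 28.7 CPM in Txnip-KO samples, against 20.3, 21.8 and 21 CPM in WT samples (0.52, SE 0.14, adjusted p = 0.0204). Every Txnip-KO sample lay below every WT sample for Slc2a1 and above for Slc2a3, with Txnip-KO 1 well above the other two for Slc2a3. Without WT 1, WT 2 or WT 3 the Slc2a3 call was lost (adjusted p = 0.0666, 0.0544 and 0.0697), and without Txnip-KO 1 the change fell to 0.32 (adjusted p = 0.0243). It was also lost in cells with no division-gene UMI (0.29, adjusted p = 0.208) and with cells thinned to 1000 UMIs (0.29, adjusted p = 0.433). Slc2a6, a carrier of lysosomal membranes, had 6.64, 3.15 and 5.34 CPM in Txnip-KO samples and 6.30, 6.81 and 7.02 CPM in WT samples, which overlapped (-0.42, adjusted p = 0.185). Shares within a gene family are shares of UMIs, 1 tag near the 3′ end per transcript, and need no division by length. Of the UMIs of these 3 genes, Slc2a1 held 12.4% ± 0.391 in Txnip-KO and 24.4% ± 0.878 in WT samples, and Slc2a3 held 75.2% ± 1.71 in Txnip-KO and 57.3% ± 1.15 in WT samples (SD, n = 3 each). A two-sided exact permutation test of 3 against 3 cannot go below p = 0.1, which both shares reached, and the smallest adjusted p over all 303 shares tested was 0.246.

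The Slc2a1 share was lower in Txnip-KO progenitor types as well. Slc2a1 held 17.7% ± 2.20 of transporter UMIs in Txnip-KO and 40.2% ± 2.55 in WT granulocyte-monocyte progenitor-like cells, 15.5% ± 0.283 in Txnip-KO and 35.7% ± 1.56 in WT lymphoid-primed progenitor-like cells, and 10.7% ± 4.68 in Txnip-KO and 29.7% ± 4.33 in WT HSC-like cells. In erythroid-like cells it held 8.88% ± 5.16 in Txnip-KO and 16.1% ± 2.33 in WT samples. The level of Slc2a1 fell in granulocyte-monocyte progenitor-like (log2 fold change -1.23, adjusted p = 0.00147) and lymphoid-primed progenitor-like cells (-1.09, adjusted p = 0.00113). Slc2a3 rose most in megakaryocyte lineage-like cells, with 41.4, 34.7 and 66.9 CPM in Txnip-KO samples and 15.6, 22.9 and 23.3 CPM in WT samples (1.13, SE 0.23, adjusted p = 0.00437). No Txnip-KO sample overlapped a WT sample there, and Txnip-KO 3 was the highest. Slc2a1 was below 0 in all 8 types tested and passed in 4, and Slc2a3 passed as higher in 4 of 10.

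In upper glycolysis Hk2, Aldoc and Tpi1 were lower over all kept cells, and none of the 10 members was higher. Hk2 had 19.6, 9.14 and 13 CPM in Txnip-KO samples, against 31.5, 35.5 and 32.7 CPM in WT samples, which is 0.418 times the WT level (log2 fold change -1.26, SE 0.23, adjusted p = 0.00454). Aldoc had 1.63, 1.97 and 2.32 CPM in Txnip-KO samples, against 5.43, 4.98 and 4.83 CPM in WT samples (-1.36, SE 0.16, adjusted p = 0.00125). Tpi1, triose phosphate isomerase, had 140, 181 and 168 CPM in Txnip-KO samples, against 213, 222 and 214 CPM in WT samples (-0.41, SE 0.10, adjusted p = 0.0117). For all 3 genes the groups did not overlap, and Txnip-KO 1 had the highest Hk2 and the lowest Tpi1 of the Txnip-KO samples. The Tpi1 call was lost without WT 2 (adjusted p = 0.0510), in cells with no division-gene UMI (0.197) and with cells thinned to 1000 UMIs (0.0752). In erythroid-like cells Tpi1 had 150, 183 and 184 CPM in Txnip-KO samples, against 218, 240 and 243 CPM in WT samples (-0.44, SE 0.09, adjusted p = 0.00459), a call likewise lost in cells with no division-gene UMI (0.0653). Hk1 had 78.0, 83.9 and 76.2 CPM in Txnip-KO samples and 74.6, 75.4 and 67.4 CPM in WT samples and did not pass (0.13, adjusted p = 0.181), nor did Hk3 (-0.23, adjusted p = 0.0912). Aldoa had 251, 277 and 307 CPM in Txnip-KO samples and 298, 317 and 332 CPM in WT samples (-0.18, adjusted p = 0.137). With the replicate number as a block Aldoa passed (-0.19, adjusted p = 0.0442). The phosphofructokinase genes Pfkl, Pfkm and Pfkp and the isomerase Gpi1 had log2 fold changes of -0.12, 0.15, -0.12 and -0.04, none of which passed.

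Hk2 passed as lower in stem and progenitor types, in their erythroid and megakaryocyte relatives and, at a very low level, in NK-like cells. In lymphoid-primed progenitor-like cells it had 4.89, 4.22 and 6.31 CPM in Txnip-KO samples, against 16.0, 16.9 and 16.3 CPM in WT samples (log2 fold change -1.68, SE 0.18, adjusted p = 1.29e-05). Granulocyte-monocyte progenitor-like cells had 33.2, 20.5 and 29.0 CPM in Txnip-KO samples, against 51.1, 55.4 and 53.7 CPM in WT samples (-1.0, SE 0.14, adjusted p = 1.59e-05). HSC-like cells had 16.0, 10.3 and 22.7 CPM in Txnip-KO samples, against 28.8, 38.7 and 29.3 CPM in WT samples (-1.04, SE 0.26, adjusted p = 0.0116). In these types the highest Txnip-KO sample lay below the lowest WT sample. The HSC-like call was lost without WT 2 (adjusted p = 0.0992), Txnip-KO 1 (0.0629) or Txnip-KO 2 (0.0667). Erythroid-like cells changed by -1.54 (SE 0.23, adjusted p = 0.000536) at a lower level, 2.45 to 4.92 CPM in Txnip-KO and 9.67 to 11.5 CPM in WT samples. The megakaryocyte lineage-like change was -1.16 (adjusted p = 0.0182), and that call was lost without WT 2 (0.129) or Txnip-KO 2 (0.0903) and by DESeq2's Wald test. The NK-like fall ranged from -1.75 to -1.17 over the alternatives and lost its call only by DESeq2's Wald test. It rests on 5 to 6 Hk2 UMIs per Txnip-KO sample and 14 to 18 per WT sample. Monocyte lineage-like cells had most of their hexokinase UMIs from Hk2 in both groups, at 59.5% ± 3.46 of hexokinase UMIs in Txnip-KO and 60.3% ± 3.27 in WT samples. Scaled by total UMIs, Hk2 had 87.9, 54.4 and 76.6 CPM there in Txnip-KO and 98.6, 88.1 and 109 CPM in WT samples. Neutrophil lineage-like cells had 52.2, 50.3 and 45.3 CPM in Txnip-KO and 110, 153 and 87.9 CPM in WT samples. Plasmacytoid dendritic-like cells held 0, 1 and 2 Hk2 UMIs in Txnip-KO and 17, 19 and 26 in WT samples. In innate lymphoid-like cells the groups overlapped. Hk2 was not called in these types in the main test.

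Basophil or mast-like cells, the type with the most Hk2, had 252, 153 and 242 CPM in Txnip-KO samples, against 317, 290 and 322 CPM in WT samples (log2 fold change -0.49, SE 0.15, adjusted p = 0.0403). This call was lost without WT 1 (adjusted p = 0.127), WT 2 (0.0945), WT 3 (0.101) or Txnip-KO 2 (0.178), by DESeq2's Wald test, under a stricter cell filter and in a gate with 1 marker more. The basophil or mast markers themselves, 6 genes, summed to 17680 to 24320 CPM in Txnip-KO and 36240 to 44750 CPM in WT cells of this gate. There were 113 to 366 such cells per Txnip-KO sample and 562 to 739 per WT sample. Hk2 was also set against the basophil proteases Mcpt8 and Prss34. The basophil or mast-like cells held 0.0117 to 0.0136 Hk2 UMIs per UMI of these proteases in Txnip-KO and 0.00735 to 0.0102 in WT samples. HSC-like cells held 1.25 to 7.33 in Txnip-KO and 1.29 to 2.65 in WT samples, and lymphoid-primed progenitor-like cells 0.282 to 1.25 in Txnip-KO and 1.08 to 1.24 in WT samples. The ratio was 0.0355 to 0.156 in Txnip-KO and 0.0658 to 0.154 in WT NK-like cells. In B lineage-like cells it was 0.0476, 3 and 0.25 in Txnip-KO 1, 2 and 3, against 0.636, 0.25 and 0.0730 in WT 1, 2 and 3, on 1 to 26 Hk2 UMIs per sample.

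Within the hexokinase family the share of Hk2 was smaller in Txnip-KO samples. Over all kept cells Hk2 held 11.9% ± 3.88 of hexokinase UMIs in Txnip-KO and 25.1% ± 1.32 in WT samples, Hk1 68.4% ± 5.51 in Txnip-KO and 54.6% ± 1.16 in WT samples, and Hk3 19.7% ± 1.65 in Txnip-KO and 20.3% ± 0.158 in WT samples. In lymphoid-primed progenitor-like cells Hk2 held 8.99% ± 1.72 in Txnip-KO and 27.2% ± 1.26 in WT samples. Hk3 there held 17.7% ± 2.88 in Txnip-KO and 8.67% ± 1.37 in WT samples, and its level rose (log2 fold change 0.94, adjusted p = 0.00316), a call lost in cells with no division-gene UMI (0.118). In these lymphoid-primed progenitor-like cells the 6 granulocyte-monocyte progenitor markers summed to 493 to 564 CPM in Txnip-KO and 349 to 411 CPM in WT samples. The 7 HSC markers there summed to 183 to 259 CPM in Txnip-KO and 129 to 158 CPM in WT samples, and the part of either in the Hk3 change was not tested. In granulocyte-monocyte progenitor-like cells Hk2 held 15.1% ± 3.19 in Txnip-KO and 24.7% ± 1.0 in WT samples, with Hk3 at 44.6% ± 2.62 in Txnip-KO and 44.8% ± 0.989 in WT samples. Aldoc fell in HSC-like cells, with 5.03, 7.57 and 9.29 CPM in Txnip-KO samples, against 19.8, 24.1 and 29.3 CPM in WT samples (-1.79, SE 0.32, adjusted p = 0.0011). Its groups did not overlap, and it held 2.50% ± 0.844 of aldolase UMIs in Txnip-KO and 6.01% ± 0.599 in WT HSC-like cells. In HSC-like cells the 6 granulocyte-monocyte progenitor markers summed to 607 to 750 CPM in Txnip-KO and 317 to 534 CPM in WT samples, and their part in these changes was not tested.

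**Figure D4:**
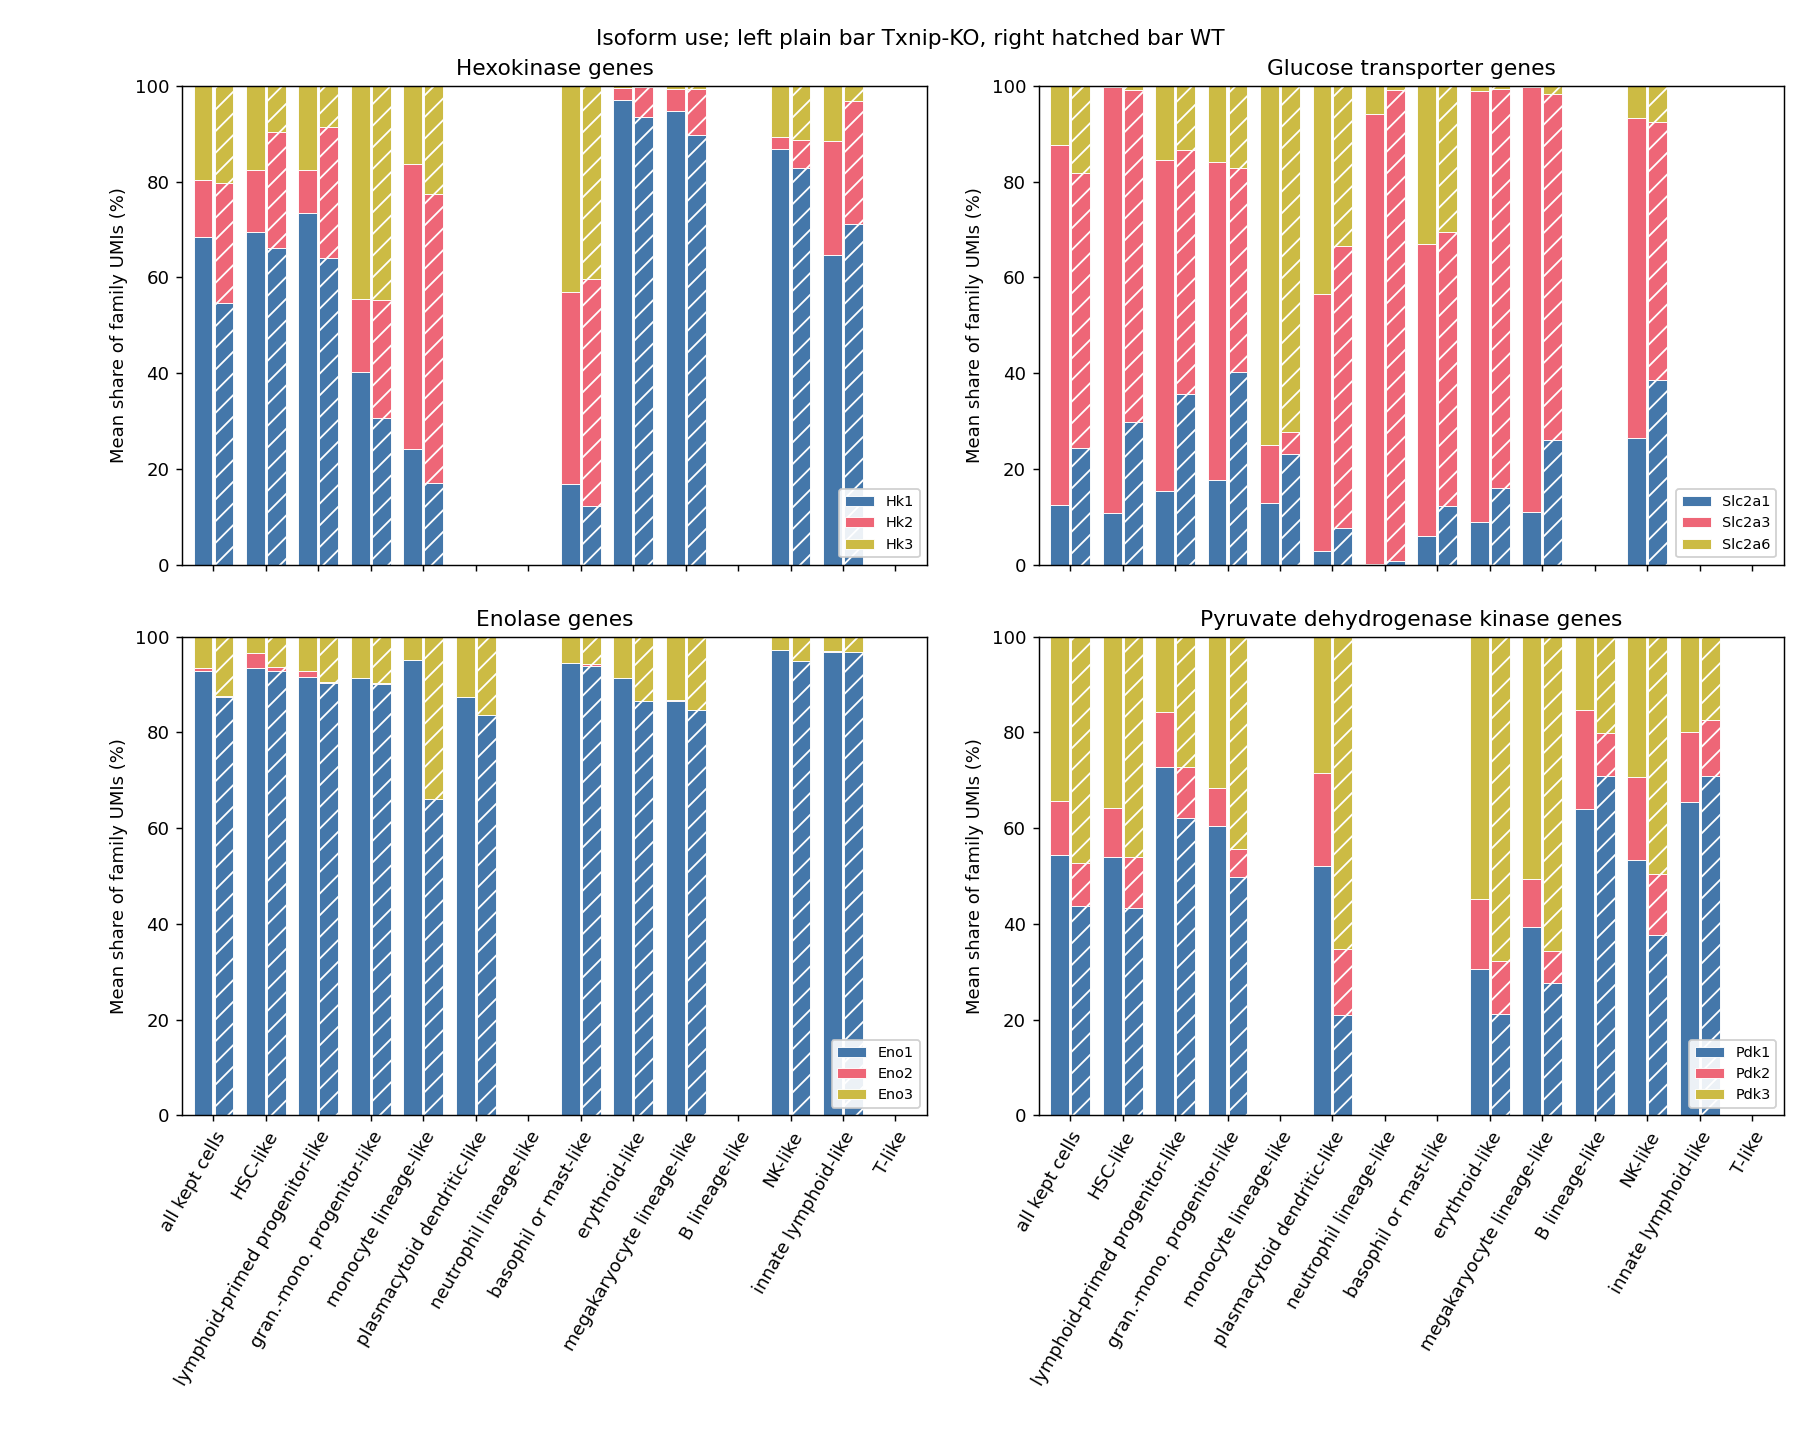
Mean share of family UMIs (%, 3 samples per group) held by each gene of 4 families, over all kept cells and in each type. Of each pair the left plain bar is Txnip-KO and the right hatched bar is WT; a type is left out where a sample had under 20 UMIs of the family. Hk2 takes a smaller share in Txnip-KO lymphoid-primed progenitor-like cells (8.99%, WT 27.2%), and Pdk1 a larger share in Txnip-KO plasmacytoid dendritic-like cells (52.1%, WT 21.1%).

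The PFKFB regulators moved the other way, with Pfkfb3 and Pfkfb4 higher in Txnip-KO cells. Pfkfb3, the family member with the strongest kinase activity, had 20.5, 17 and 17.6 CPM in Txnip-KO samples, against 10.3, 10.1 and 9.63 CPM in WT samples, a ratio of 1.83 (log2 fold change 0.88, SE 0.09, adjusted p = 0.00102). Pfkfb4 had 9.49, 7.65 and 8.13 CPM in Txnip-KO samples, against 6.43, 5.82 and 5.01 CPM in WT samples (0.55, SE 0.13, adjusted p = 0.0119). No sample of either group overlapped the other for these genes. The Pfkfb4 call was lost without WT 3 (adjusted p = 0.0505), in cells with no division-gene UMI (0.0938) and with cells thinned to 1000 UMIs (0.178). Pfkfb2 had 2.33, 2.68 and 1.82 CPM in Txnip-KO samples and 1.60, 1.43 and 1.8 CPM in WT samples and did not pass (0.50, adjusted p = 0.0733). Pfkfb1, the gene of liver and muscle, stayed under 1 CPM in every sample (0.09, adjusted p = 0.765). Pfkfb3 held 61.6% ± 1.06 of the family's UMIs in Txnip-KO and 55.4% ± 1.26 in WT samples, while Pfkfb4 held 28.2% ± 0.881 in Txnip-KO and 31.7% ± 2.34 in WT samples.

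Pfkfb3 rose in 8 types. NK-like cells had 19.4, 17.2 and 18.6 CPM in Txnip-KO samples, against 6.66, 7.88 and 6.12 CPM in WT samples (log2 fold change 1.43, SE 0.18, adjusted p = 4.98e-05). Granulocyte-monocyte progenitor-like cells had 24.5, 23.5 and 22.3 CPM in Txnip-KO samples, against 12.8, 13.8 and 14.5 CPM in WT samples (0.77, SE 0.15, adjusted p = 0.000468). Basophil or mast-like cells had 69.4, 70.9 and 66.7 CPM in Txnip-KO samples, against 30.6, 26.8 and 26.5 CPM in WT samples (1.31, SE 0.20, adjusted p = 0.000136). The 3 Txnip-KO samples lay close together in each of these types and well above every WT sample. Monocyte lineage-like cells had 30.3, 29.6 and 30.1 CPM in Txnip-KO samples, against 13.5, 8.12 and 11.3 CPM in WT samples (1.45, SE 0.27, adjusted p = 0.00522). Lymphoid-primed progenitor-like cells had 14.7, 15.7 and 17.2 CPM in Txnip-KO samples, against 9.73, 10.6 and 8.37 CPM in WT samples (0.74, SE 0.16, adjusted p = 0.00187). Both of these calls were lost in cells with no division-gene UMI, where the log2 fold changes were 1.12 (SE 0.35, adjusted p = 0.133) and 0.52 (SE 0.22, adjusted p = 0.0831). Among all cells of both types the groups did not overlap. Erythroid-like cells had 11.6, 9.23 and 10.6 CPM in Txnip-KO samples, against 5.52, 4.95 and 5.91 CPM in WT samples (0.93, SE 0.17, adjusted p = 0.00207), a call likewise lost in cells with no division-gene UMI (0.72, adjusted p = 0.0782). Megakaryocyte lineage-like cells had 10.5, 11.4 and 11.5 CPM in Txnip-KO samples, against 4.01, 5.81 and 7.76 CPM in WT samples (0.93, SE 0.28, adjusted p = 0.0321). That call was lost without WT 1, WT 2, Txnip-KO 1 or Txnip-KO 2, by DESeq2's Wald test and in a gate with 1 marker more (adjusted p = 0.0526 to 0.147). Innate lymphoid-like cells had 28.1, 16.9 and 23.2 CPM in Txnip-KO samples, against 10.8, 9 and 7.67 CPM in WT samples (1.28, SE 0.37, adjusted p = 0.0482). That call was lost with the replicate number as a block (adjusted p = 0.0521) and without any one of WT 1, WT 2, WT 3, Txnip-KO 1 or Txnip-KO 3 (adjusted p = 0.103 to 0.198). The basophil or mast-like call was lost under a stricter cell filter (adjusted p = 0.257). In lymphoid-primed progenitor-like cells Pfkfb4 also rose, with 13.4, 11.8 and 12.1 CPM in Txnip-KO samples, against 8.29, 7.68 and 7.22 CPM in WT samples (0.68, SE 0.17, adjusted p = 0.00487).

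In lower glycolysis Pgk1 and Pgam1 fell and Eno2 rose. Pgk1, phosphoglycerate kinase, had 125, 142 and 138 CPM in Txnip-KO samples, against 176, 172 and 170 CPM in WT samples (log2 fold change -0.36, SE 0.07, adjusted p = 0.00587). Pgam1, phosphoglycerate mutase, had 170, 172 and 167 CPM in Txnip-KO samples, against 202, 222 and 217 CPM in WT samples (-0.33, SE 0.07, adjusted p = 0.00636). Neither overlapped between groups, though the Pgam1 call was lost in cells with no division-gene UMI (adjusted p = 0.154) and with cells thinned to 1000 UMIs (0.202). Eno2, the enolase of neurons, had 0.515, 0.328 and 0.547 CPM in Txnip-KO samples, against 0.0952, 0.116 and 0.0762 CPM in WT samples (2.24, SE 0.35, adjusted p = 0.00264). Its share was small in both groups, at 0.545% ± 0.201 of enolase UMIs in Txnip-KO and 0.131% ± 0.0292 in WT samples. Eno1, the main enolase, had 80.2, 96.8 and 68.9 CPM in Txnip-KO samples and 70.8, 62.3 and 59.8 CPM in WT samples, which overlapped (0.35, adjusted p = 0.0527). With the replicate number as a block Eno1 passed (0.34, adjusted p = 0.0302). Gapdh had 920, 1092 and 1096 CPM in Txnip-KO samples and 1177, 1130 and 1168 CPM in WT samples and did not pass (-0.16, adjusted p = 0.149), nor did the pyruvate kinase gene Pkm (-0.13, adjusted p = 0.124). Gapdh fell in basophil or mast-like cells, with 776, 851 and 772 CPM in Txnip-KO samples, against 1157, 1089 and 1020 CPM in WT samples (-0.45, SE 0.11, adjusted p = 0.0151), a call lost without WT 1 (0.0945) or WT 2 (0.0834). It was also lost without doublet removal (0.0586), under a stricter cell filter (0.345), in a gate with 1 marker more (0.0515) and in cells with no division-gene UMI (-0.18, adjusted p = 0.443). Counts of Gapdh, Aldoa, Ldha, Eno1, Pgam1, Pgk1 and Tpi1 are uncertain to the extent that their near-identical pseudogene copies share reads.

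In monocyte lineage-like cells Eno3 was lower and Eno1 higher. Eno3 had 12.1, 17.2 and 4.81 CPM there in Txnip-KO samples, against 182, 43.1 and 24.7 CPM in WT samples (log2 fold change -2.96, SE 0.71, adjusted p = 0.0215). WT 1 stood far above the other WT samples: without it the change was -1.68 (adjusted p = 0.00697). The call was lost without Txnip-KO 1 (adjusted p = 0.109), Txnip-KO 2 (0.0558) or Txnip-KO 3 (0.0933), by DESeq2's Wald test and in a gate with 1 marker more. Eno3 held 4.89% ± 1.55 of enolase UMIs in Txnip-KO and 33.9% ± 19.3 in WT samples of this type. Eno1 rose there, with 201, 276 and 150 CPM in Txnip-KO samples, against 146, 111 and 111 CPM in WT samples (0.73, SE 0.19, adjusted p = 0.034), a call lost without WT 2, WT 3, Txnip-KO 1 or Txnip-KO 2 (adjusted p = 0.104 to 0.129), under a stricter cell filter and in cells with no division-gene UMI. Granulocyte-monocyte progenitor-like cells gave the firmest Eno1 rise, at 0.69 (SE 0.12, adjusted p = 0.000149), which passed under every alternative. In the monocyte gate the 5 lymphoid-primed progenitor markers summed to 139.5 to 230 CPM in Txnip-KO and 26.8 to 55.1 CPM in WT samples, beside 19700 to 25380 CPM in Txnip-KO and 16360 to 18000 CPM in WT samples for the 6 monocyte lineage markers. Their part in the enolase values was not tested.

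Lactate genes were lower in Txnip-KO cells. Ldha, the subunit that favours lactate production, had 278, 323 and 319 CPM in Txnip-KO samples, against 380, 406 and 401 CPM in WT samples (log2 fold change -0.37, SE 0.08, adjusted p = 0.00814). Ldhb had 25, 29.4 and 30.1 CPM in Txnip-KO samples, against 36.4, 32.8 and 36.8 CPM in WT samples (-0.33, SE 0.09, adjusted p = 0.0186). Slc16a1, the lactate and pyruvate carrier MCT1, had 14.3, 18 and 16.2 CPM in Txnip-KO samples, against 22.5, 23.6 and 20.8 CPM in WT samples (-0.46, SE 0.10, adjusted p = 0.00742). All 3 genes were lower in every Txnip-KO sample than in any WT sample. The Ldhb call was lost without WT 1 (adjusted p = 0.0583) or WT 3 (0.0701) and with cells thinned to 1000 UMIs (0.203), and that of Slc16a1 in cells with no division-gene UMI (0.0714). Slc16a3, the lactate exporter MCT4, had 8.23, 4.09 and 6.39 CPM in Txnip-KO samples and 7.03, 6.42 and 6.54 CPM in WT samples and did not pass (-0.10, adjusted p = 0.747).

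By type, Ldha fell in B lineage-like cells to 62.5, 165 and 124 CPM in Txnip-KO samples, against 256, 296 and 276 CPM in WT samples (log2 fold change -1.26, SE 0.26, adjusted p = 0.00842). In erythroid-like cells it had 402, 444 and 440 CPM in Txnip-KO samples, against 530, 572 and 602 CPM in WT samples (-0.41, SE 0.08, adjusted p = 0.00312). Slc16a1 fell in the same erythroid-like cells, with 23.1, 27.1 and 32.1 CPM in Txnip-KO samples, against 42.5, 45.8 and 42.3 CPM in WT samples (-0.65, SE 0.12, adjusted p = 0.00207). Txnip-KO 1 was the lowest sample in all 3 of these comparisons, and no groups overlapped. The B lineage-like Ldha call was lost without WT 2 (adjusted p = 0.0586). Ldhb fell in HSC-like cells to 76.8, 87.4 and 82.5 CPM in Txnip-KO samples, against 129, 121 and 154 CPM in WT samples (-0.71, SE 0.13, adjusted p = 0.00174). It held 22.3% ± 1.69 of lactate dehydrogenase UMIs in Txnip-KO and 31.5% ± 3.59 in WT HSC-like cells. In plasmacytoid dendritic-like cells its share was on the other side, 51.0% ± 1.53 in Txnip-KO and 42.5% ± 2.65 in WT samples. Granulocyte-monocyte progenitor-like cells had 14.1, 12.7 and 19.6 CPM of Ldhb in Txnip-KO samples, against 26.8, 24.8 and 21.7 CPM in WT samples (-0.70, SE 0.17, adjusted p = 0.00273), a call lost in cells with no division-gene UMI (0.114) and under a stricter cell filter (0.0679).

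At the entry of pyruvate into mitochondria both carrier subunits fell and 2 kinases rose. Mpc1 had 68.2, 74.1 and 77.9 CPM in Txnip-KO samples, against 122, 133 and 131 CPM in WT samples, which is 0.570 times the WT level (log2 fold change -0.81, SE 0.07, adjusted p = 0.000782). Mpc2 had 105, 102 and 104 CPM in Txnip-KO samples, against 147, 154 and 152 CPM in WT samples (-0.54, SE 0.06, adjusted p = 0.00111). Samples within a group lay close together and the groups were far apart for both. Pdk1, a kinase that switches off pyruvate dehydrogenase, had 52.2, 52.5 and 39.5 CPM in Txnip-KO samples, against 32.6, 31.6 and 30.6 CPM in WT samples (0.61, SE 0.11, adjusted p = 0.00437). Pdk2 had 9.88, 9.43 and 10.5 CPM in Txnip-KO samples, against 6.47, 6.38 and 7.02 CPM in WT samples (0.59, SE 0.09, adjusted p = 0.00288). The Pdk2 call was lost with cells thinned to 1000 UMIs (0.44, adjusted p = 0.111). Neither kinase overlapped between groups, and Txnip-KO 3 was the lowest Txnip-KO sample for Pdk1. Pdk3 had 29.6, 31.8 and 28.9 CPM in Txnip-KO samples and 34.7, 35.1 and 32.7 CPM in WT samples (-0.18, adjusted p = 0.0541) and passed with the replicate number as a block (-0.18, adjusted p = 0.0364). Pdk1 held 54.3% ± 3.72 of the UMIs of these kinases in Txnip-KO and 43.6% ± 0.482 in WT samples, and Pdk3 34.3% ± 2.17 in Txnip-KO and 47.2% ± 0.774 in WT samples. Pdha1, a subunit of the dehydrogenase itself, was nearly level (0.02, adjusted p = 0.795).

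Mpc1 passed in more types than any other member, with log2 fold changes of -0.37 to -1.04 in the 9 types that passed. Granulocyte-monocyte progenitor-like cells had 72.6, 65.6 and 67.9 CPM in Txnip-KO samples, against 146, 148 and 129 CPM in WT samples (-1.04, SE 0.09, adjusted p = 1.90e-07). In lymphoid-primed progenitor-like cells the values were 65.0, 67.1 and 62.9 CPM in Txnip-KO and 112, 118 and 114 CPM in WT samples (-0.82, SE 0.08, adjusted p = 6.68e-06). HSC-like cells had 61.7, 59.8 and 64.0 CPM in Txnip-KO samples, against 105, 102 and 102 CPM in WT samples (-0.75, SE 0.13, adjusted p = 0.00119). These ranges are narrow within each group, and none overlap, as the choice of values by type required. NK-like cells had 78.1, 89.7 and 83.0 CPM in Txnip-KO samples, against 124, 137 and 153 CPM in WT samples (-0.72, SE 0.10, adjusted p = 0.000121). B lineage-like cells had 55.5, 44.9 and 48.8 CPM in Txnip-KO samples, against 93.1, 98.1 and 99.5 CPM in WT samples (-0.95, SE 0.18, adjusted p = 0.00631). Innate lymphoid-like cells had 70.3, 86.8 and 83.5 CPM in Txnip-KO samples, against 128, 135 and 169 CPM in WT samples (-0.84, SE 0.16, adjusted p = 0.00426). Again no groups overlapped, as that choice required. Megakaryocyte lineage-like cells had 60.1, 70.7 and 77.7 CPM in Txnip-KO samples, against 121, 112 and 109 CPM in WT samples (-0.73, SE 0.12, adjusted p = 0.00111). Plasmacytoid dendritic-like cells had 104, 129 and 139 CPM in Txnip-KO samples, against 192, 207 and 225 CPM in WT samples (-0.75, SE 0.13, adjusted p = 0.000152). The 8 types named here passed under every alternative that could be fitted. The erythroid-like value was the smallest of the 9, at -0.37 (adjusted p = 0.0248), and was lost without any one of WT 1, WT 2, WT 3 or Txnip-KO 2, in cells with no division-gene UMI and in a gate with 1 marker more. In basophil or mast-like cells, where Mpc2 carries most of the pair, Mpc2 had 589, 624 and 653 CPM in Txnip-KO samples, against 919, 985 and 979 CPM in WT samples (-0.64, SE 0.11, adjusted p = 0.000989).

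Pdk1 changed most in plasmacytoid dendritic-like cells, with 63.8, 43.5 and 30.9 CPM in Txnip-KO samples, against 7.27, 11.5 and 11.9 CPM in WT samples (log2 fold change 2.11, SE 0.28, adjusted p = 5.83e-06). The lowest Txnip-KO sample was still above the highest WT sample, although Txnip-KO samples were far apart. Pdk1 held 52.1% ± 7.72 of kinase UMIs there in Txnip-KO and 21.1% ± 4.42 in WT samples, and Pdk3 held 28.6% ± 11.6 in Txnip-KO and 65.2% ± 2.35 in WT samples. These cells numbered 77 to 112 per Txnip-KO sample and 214 to 337 per WT sample, and the 5 lymphoid-primed progenitor markers in them summed to 622 to 735 CPM in Txnip-KO and 316 to 363 CPM in WT samples. WT lymphoid-primed progenitor-like cells had Pdk1 at 52.0 ± 2.92 CPM, and the part of such transcripts in the plasmacytoid dendritic-like value was not tested. NK-like cells had 28.5, 24.6 and 20.6 CPM of Pdk1 in Txnip-KO samples, against 15.2, 15.5 and 16.1 CPM in WT samples (0.65, SE 0.16, adjusted p = 0.00555). Their Pdk3 fell to 11.5, 14.8 and 13.9 CPM in Txnip-KO samples, against 21.8, 20.6 and 19.2 CPM in WT samples (-0.62, SE 0.16, adjusted p = 0.00789). In erythroid-like cells Pdk1 had 25.4, 20.7 and 20 CPM in Txnip-KO samples, against 13.3, 12.8 and 13.1 CPM in WT samples (0.74, SE 0.13, adjusted p = 0.0013), a call lost in cells with no division-gene UMI (0.128). Megakaryocyte lineage-like cells had 37.3, 36 and 31.6 CPM of Pdk1 in Txnip-KO samples, against 26.8, 24.3 and 19.1 CPM in WT samples (0.58, SE 0.16, adjusted p = 0.0212). Groups were apart in both types, and the megakaryocyte call was lost without WT 2, WT 3, Txnip-KO 1 or Txnip-KO 2 (adjusted p = 0.0527 to 0.0926), by DESeq2's Wald test and in cells with no division-gene UMI. Pdha1 rose in plasmacytoid dendritic-like cells, with 78.4, 83.3 and 67.0 CPM in Txnip-KO samples, against 56.8, 52.0 and 47.7 CPM in WT samples (0.56, SE 0.17, adjusted p = 0.0204), a call lost without WT 3 (0.0725), Txnip-KO 1 (0.0866) or Txnip-KO 2 (0.112) and in 5 other alternatives (0.0533 to 0.0932).

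**Figure D5:**
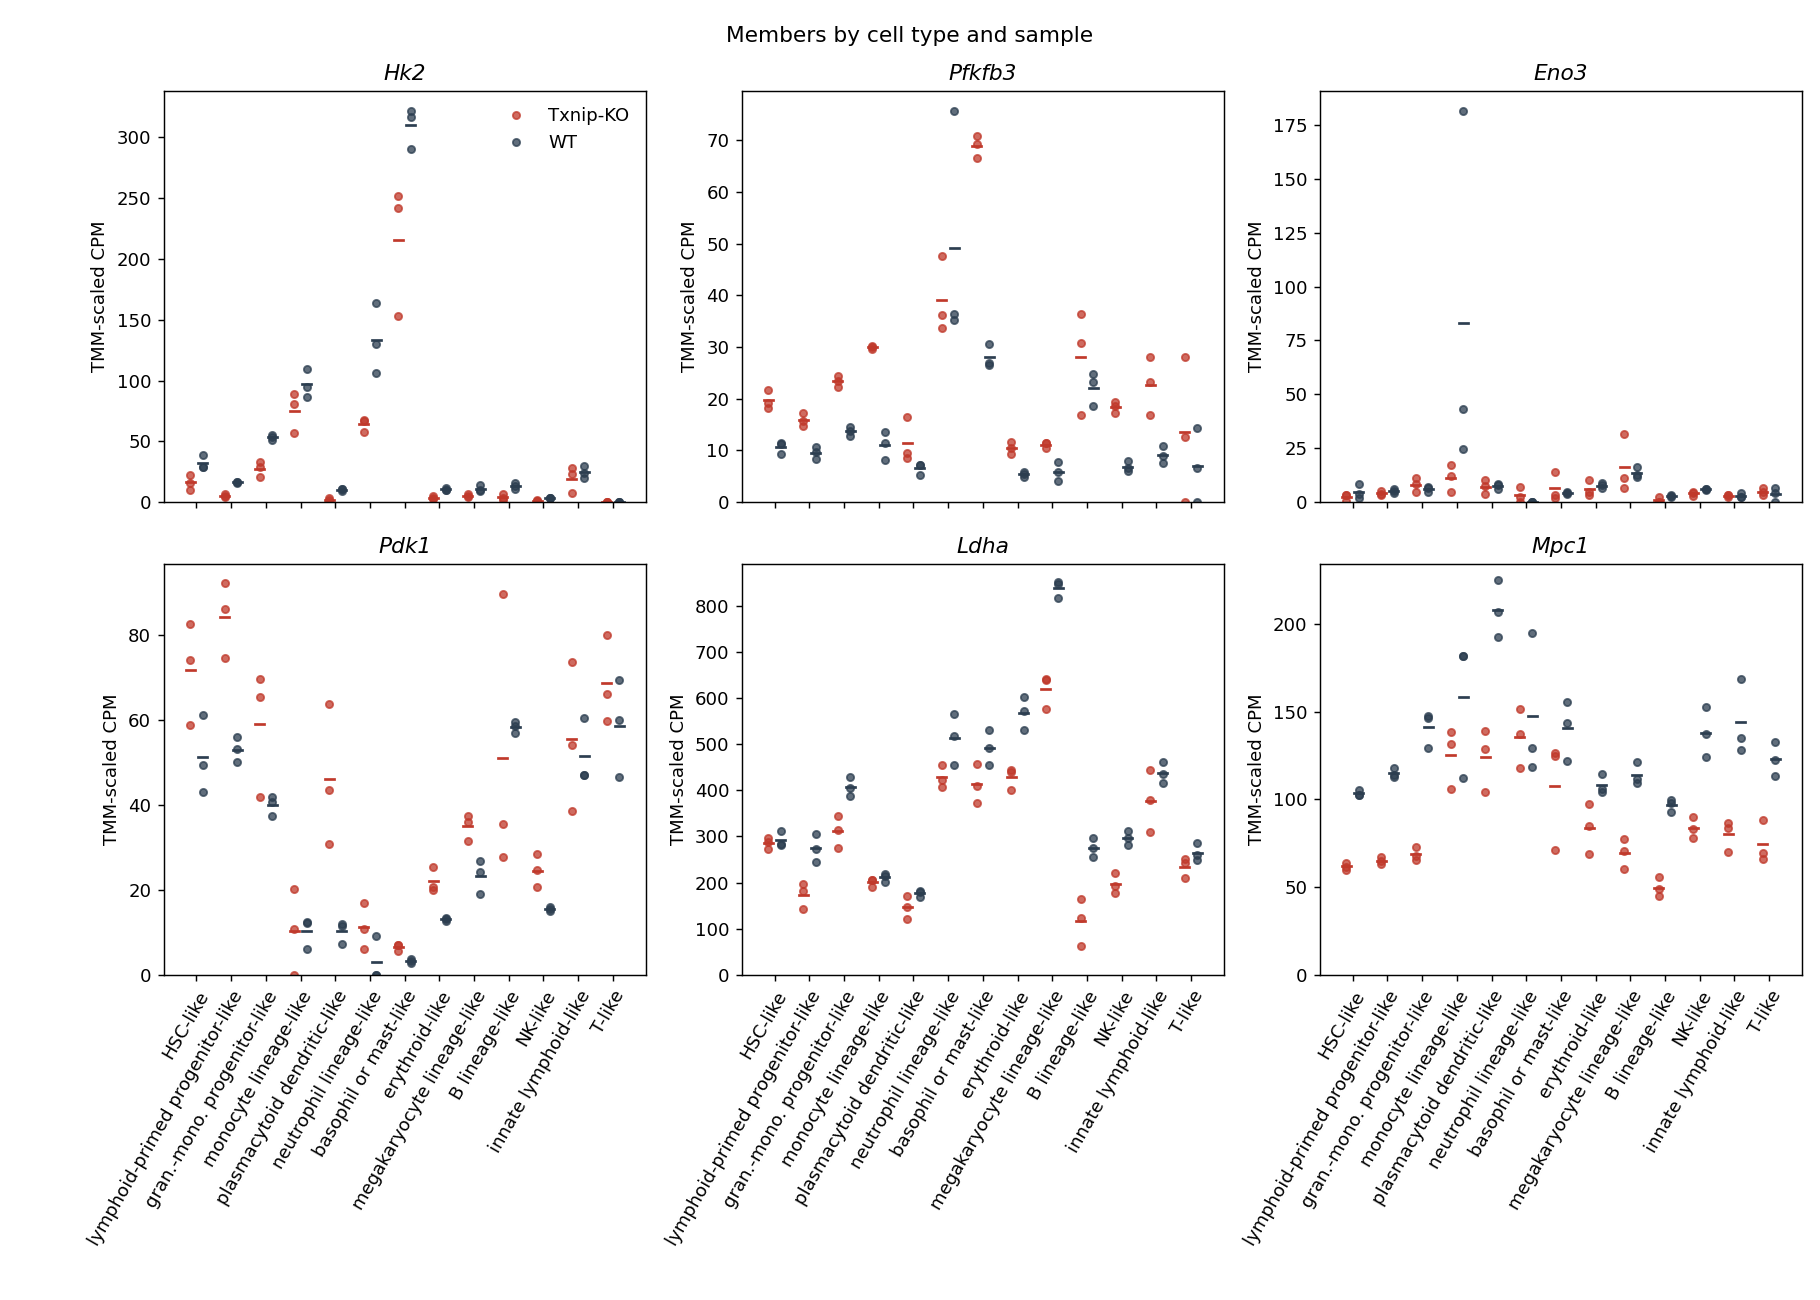
TMM-scaled CPM of 6 members in each marker-gated type; points are single samples (Txnip-KO left, WT right) and horizontal lines are means of 3 samples. Hk2 and Mpc1 lie lower and Pfkfb3 higher in Txnip-KO samples of most types, Pdk1 is apart most in plasmacytoid dendritic-like cells, and WT 1 alone sets the high Eno3 mean of WT monocyte lineage-like cells.

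In the oxidative pentose phosphate branch Pgls fell. It had 283, 364 and 349 CPM in Txnip-KO samples, against 450, 492 and 536 CPM in WT samples (log2 fold change -0.57, SE 0.11, adjusted p = 0.0056), with no overlap and the lowest value in Txnip-KO 1. Pgd, 6-phosphogluconate dehydrogenase, had 58.1, 43.9 and 43.0 CPM in Txnip-KO samples and 59.4, 63.5 and 58.3 CPM in WT samples (-0.32, adjusted p = 0.0548), and passed with the replicate number as a block (-0.33, adjusted p = 0.0352). G6pdx, which commits glucose to the pathway, had 24.1, 20.4 and 23.7 CPM in Txnip-KO samples and 22.9, 24.4 and 23.2 CPM in WT samples, which overlapped (-0.05, adjusted p = 0.649). Pgls passed as lower in 7 types, among them lymphoid-primed progenitor-like (-0.67, adjusted p = 0.000155) and NK-like cells (-0.52, adjusted p = 0.0021). Innate lymphoid-like cells had 195, 231 and 175 CPM of Pgls in Txnip-KO samples, against 290, 260 and 296 CPM in WT samples (-0.48, SE 0.13, adjusted p = 0.0345), a call lost without any one of WT 1, WT 2, WT 3, Txnip-KO 1 or Txnip-KO 3 (adjusted p = 0.0639 to 0.138), under a stricter cell filter and in a gate with a lead of 1 marker. Pgd was below 0 in all 13 types and passed in 4. In megakaryocyte lineage-like cells it had 43.3, 37.2 and 38.1 CPM in Txnip-KO samples, against 47.7, 66.0 and 55.9 CPM in WT samples (-0.53, SE 0.15, adjusted p = 0.021), with no overlap; the call was lost without WT 2 (0.126), WT 3 (0.0577) or Txnip-KO 2 (0.0847), by DESeq2's Wald test and in cells with no division-gene UMI.

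The non-oxidative branch was lower in its 2 exchange enzymes and not in its isomerases. Tkt had 252, 287 and 266 CPM in Txnip-KO samples, against 340, 346 and 335 CPM in WT samples (log2 fold change -0.34, SE 0.07, adjusted p = 0.00773). Taldo1 had 285, 281 and 335 CPM in Txnip-KO samples, against 375, 408 and 415 CPM in WT samples (-0.41, SE 0.09, adjusted p = 0.00859). Both were lower in every Txnip-KO sample than in any WT sample. The ribose 5-phosphate isomerase gene Rpia and the epimerase gene Rpe overlapped between groups (-0.11 and -0.13, adjusted p = 0.214 and 0.271). Tkt fell in plasmacytoid dendritic-like cells to 126, 146 and 155 CPM in Txnip-KO samples, against 207, 244 and 222 CPM in WT samples (-0.66, SE 0.12, adjusted p = 0.000364). B lineage-like cells had 74.6, 165 and 120 CPM in Txnip-KO samples, against 248, 275 and 271 CPM in WT samples (-1.16, SE 0.23, adjusted p = 0.00714), and the call was lost without WT 2 (adjusted p = 0.0515). Txnip-KO 1 was the lowest Tkt sample in both types, and the groups did not overlap. Monocyte lineage-like cells had 292, 315 and 325 CPM in Txnip-KO samples, against 443, 393 and 424 CPM in WT samples (-0.44, SE 0.12, adjusted p = 0.0358), and each sample other than WT 1 was needed for that call (adjusted p = 0.0686 to 0.148 without it). It was also lost by DESeq2's Wald test, under a stricter cell filter and in cells with no division-gene UMI. Prps2, which makes PRPP, had 34.1, 37.2 and 36.5 CPM in Txnip-KO samples, against 42.6, 45.3 and 43.1 CPM in WT samples (-0.28, SE 0.06, adjusted p = 0.00964), a call lost without WT 2 (0.0522) and with cells thinned to 1000 UMIs, where the change was -0.084 (adjusted p = 0.559), while Prps1 overlapped (-0.08, adjusted p = 0.343).

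B lineage-like cells had the lowest members' median, and 8 of their 9 calls were lost without at least 1 of the samples, Mpc1 being the exception. Pfkl, the liver-type phosphofructokinase, had 13.9, 18.9 and 28.1 CPM there in Txnip-KO samples, against 44.3, 43.6 and 49.4 CPM in WT samples (log2 fold change -1.18, SE 0.28, adjusted p = 0.0147). It lost its call without WT 2 (adjusted p = 0.0563), WT 3 (0.061) or Txnip-KO 1 (0.0794). The median depth of these cells was 2756 to 3450 UMIs in Txnip-KO and 4582 to 7284 in WT samples, and 4.8 to 15.6% of Txnip-KO and 21.5 to 27.8% of WT cells held a division-gene UMI. The 5 plasma cell markers summed to 2798 to 9577 CPM in Txnip-KO and 1586 to 2168 CPM in WT samples, and the 5 lymphoid-primed progenitor markers to 388 to 1802 CPM in Txnip-KO and 1912 to 2023 CPM in WT samples. In cells with no division-gene UMI 5 of the 9 calls were lost, those of Pgk1, Slc16a1, Gapdh, Pfkl and Pkm (adjusted p = 0.0561 to 0.0865, log2 fold changes -0.48 to -1.15). Under a stricter cell filter the same 5 and Tpi1 were lost. The part of the plasma cell and progenitor markers and of depth in the falls of glycolytic genes was not tested.

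Whether the genotype effect differed between types was tested against NK-like cells, the type with the most cells. Of 480 pairs 27 passed, 18 higher and 9 lower than in NK-like cells. B lineage-like cells held 2 higher and 8 lower of 40 members tested, where 7.68% of all genes passed (3.76% higher, 3.92% lower). Neutrophil lineage-like cells held 8 higher and 0 lower, where 4.49% passed (4.11% higher, 0.383% lower), and monocyte lineage-like cells 4 higher and 1 lower, where 5.33% passed (2.45% higher, 2.88% lower). Erythroid-like cells, with 4.4% of all genes passing (2.81% higher, 1.58% lower), HSC-like (0.35%), lymphoid-primed progenitor-like (3.11%) and plasmacytoid dendritic-like cells (0.799%) held 1 higher each. The other 5 types held 0, with 0.258 to 2.19% of all genes passing (2.19%, 0.708% higher and 1.48% lower, in basophil or mast-like cells). The rise of Pdk1 was larger in plasmacytoid dendritic-like than in NK-like cells (difference of log2 fold changes 1.36, SE 0.32, adjusted p = 0.0152), and that of Pfkfb3 smaller in B lineage-like cells (-1.15, SE 0.31, adjusted p = 0.0108). The Pdk1 call was lost without WT 1, WT 2, WT 3 or Txnip-KO 1, with differences of 1.21 to 1.47 over all alternatives, and the Pfkfb3 call without WT 1 or Txnip-KO 3, with -1.35 to -0.86. Hk2 did not pass in any of these contrasts, so its fall was not shown to differ between types.

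Genes around the pathway were counted in the same way. Of 42 tested genes of other glucose and pyruvate steps 9 were higher and 10 lower over all kept cells, with a median log2 fold change of 0.02. Of all 14648 genes 41.1% passed there, 21.8% higher and 19.3% lower. The counts for this list, the regulators and the HIF targets lie near that background. Pcx, pyruvate carboxylase, changed most, with 0.154, 0.128 and 0.290 CPM in Txnip-KO samples, against 0.809, 1.04 and 1.11 CPM in WT samples (-2.37, adjusted p = 0.0020). Of 21 tested regulators of glycolytic genes 6 were higher and 3 lower (median 0.04). Hif1a, the oxygen-regulated activator of glycolytic genes, fell to 28.6, 26.6 and 28.2 CPM in Txnip-KO samples, against 41.5, 43.4 and 40.3 CPM in WT samples (-0.59, adjusted p = 0.00102). Mlxip, a glucose-sensing partner of Mlx, rose to 33.4, 31.6 and 27.8 CPM in Txnip-KO samples, against 19.9, 18.9 and 20.6 CPM in WT samples (0.64, adjusted p = 0.00166). For Hif1a and Mlxip the groups did not overlap. Other called regulators went the other way from these 2: Mlx itself fell (-0.40, adjusted p = 0.0129) and Arnt rose (0.27, adjusted p = 0.0250). The largest change was that of Epas1, at 0.926, 0.870 and 1.37 CPM in Txnip-KO samples, against 0.206, 0.361 and 0.107 CPM in WT samples (2.21, adjusted p = 0.00453). Prkaa2, also under 2 CPM, rose as well (1.15, adjusted p = 0.00834). Of 14 tested HIF targets outside glycolysis 3 were higher and 3 lower (median -0.01), led by Ddit4, a stress-induced brake on mTOR, at 56.2, 49.3 and 31.8 CPM in Txnip-KO samples, against 10.8, 13.4 and 20.6 CPM in WT samples (1.62, adjusted p = 0.00322). All 6 division genes were lower (median -0.76), beside the smaller share of cells with a division-gene UMI, and in cells without such a UMI 17 members passed. The share of all genes that passed in those cells is not given.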

How the data were processed

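Cells of 3 Txnip-KO and 3 WT mouse bone marrow samples were profiled with a droplet 3′ kit. The deposited values are UMI counts per gene and barcode, not normalized, for which the submitters' processing notes name CASAVA 1.8, Cell Ranger 6.1.1 and Seurat 2.3.4. The sources used here do not give the build, annotation or strand setting. Members, lists and markers were chosen with earlier results of these data known, and gate thresholds after the data were seen.

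Barcodes with at least 500 genes, at least 1000 UMIs and at most 10% mitochondrial UMIs were kept (44399 of 48277). The barcodes with the highest Scrublet scores were removed as doublets, 0.8% for each 1000 barcodes (2886 barcodes, 6.5%); Scrublet's own threshold would have removed 1442. A cell joined a type when it held at least 3 of that type's markers and at least 2 more than of any other, and types with at least 20 cells in every sample were tested. Sums of UMIs per sample, for all kept cells together and by type, were tested with edgeR 4.0.16 (quasi-likelihood, TMM scaling) in R 4.3.3, with Benjamini-Hochberg adjustment over all genes of a comparison and a threshold of 0.05. CPM of members are TMM-scaled, those of Txnip, the proteases and the marker lists per total UMIs, and CPM of the comparison between WT types come from 1 fit over all types. Interactions were fitted over all types and both genotypes. Isoform shares were compared with two-sided exact permutation tests. DESeq2 1.42.0, other filters, gates and scalings, thinning to 1000 UMIs per cell, 2429 type-matched cells per sample and leaving out each sample were alternatives. The fits were tested on simulated data with known changes. Cells were read with Python 3.11.15 and scanpy 1.11.5.

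The labels do not say whether the sample numbers pair the samples. Deviations from the group means over 8260 genes correlated at 0.295, 0.167 and 0.261 between samples with the same number. Between other samples the correlations were -0.24 to -0.02, but deviations within a group cancel, so these values are not independent. The main tests between genotypes used no replicate block, which was fitted only as an alternative. All members may be named; per-sample values are given for every member called over all kept cells, and in each type for up to 4 called members with the largest change, a mean of at least 10 CPM and groups that do not overlap.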

Additional observations from a re-analysis of the deposited data

Results flagged for a closer look

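For 27 pairs of member and type the genotype effect differed from that in NK-like cells by the interaction test. Values are differences of log2 fold changes (Txnip-KO over WT), that of the type minus that of NK-like cells. In B lineage-like cells they were -1.15 for Pfkfb3, -1.0 for Pdk1, -0.85 for Eno1, -0.66 for Tpi1, -0.74 for Ldha, -1.26 for Pfkl, -0.71 for Tkt and -0.58 for Pkm, and 1.02 for Rpia and 0.62 for Pgls. All 10 of these calls were lost without at least 1 sample. In neutrophil lineage-like cells they were 1.19 for Mpc2, 3.64 for Slc2a6, 1.15 for Gapdh, 0.63 for Ldha, 0.73 for Aldoa, 1.13 for Taldo1, 1.06 for Mpc1 and 0.77 for Pgam1, where the median over all genes was 0.33. The Slc2a6 value ranged from 2.84 to 9.52 over 9 alternatives and was lost in 5, without WT 1, WT 2, WT 3 or Txnip-KO 1 and with DESeq2 size factors. It rests on 29, 2 and 5 UMIs in Txnip-KO and 0, 1 and 0 UMIs in WT neutrophil lineage-like cells. There were 21 to 266 of these cells per Txnip-KO sample and 26 to 42 per WT sample. In monocyte lineage-like cells they were 0.52 for Gapdh, 0.48 for Ldha, 0.56 for Taldo1, 0.77 for Pgls and -2.24 for Eno3. Single values were 0.41 for Pgls in erythroid-like, 0.57 for Ldha in HSC-like, 1.29 for Hk3 in lymphoid-primed progenitor-like and 1.36 for Pdk1 in plasmacytoid dendritic-like cells. Pgls in monocyte lineage-like cells, and Gapdh and Taldo1 in neutrophil lineage-like cells, were the 3 that passed under all 9 alternatives.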

How the results depend on the processing

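Over all kept cells 21 members passed, with 16 to 27 under the alternatives (18 to 25 without 1 sample, 17 in cells with no division-gene UMI, 16 with cells thinned to 1000 UMIs). Of the 21, 13 passed under each alternative that tested them. Eno2, among these, was tested in 13 of 15 alternatives, not with equal cells per type or thinned cells. Shares of all genes that passed are not given for the alternatives. Thinning discards most UMIs, and with it Prps2, Pdk2, Ldhb, Pgam1, Pfkfb4, Tpi1 and Slc2a3 were lost, as given with their results. Of pairs of member and type 125 passed, with 79 to 129 without 1 sample (79 without WT 2, 81 without WT 3) and 76 in cells with no division-gene UMI. Interactions numbered 27, with 10 to 35 without 1 sample (14 without WT 1, 16 without WT 2, 10 without Txnip-KO 1). Differences between WT types numbered 334, with 300 to 361, and include 42 higher and 4 lower of members that held no UMI in some type. A gate with a lead of 1 marker, chosen after seeing the data, gave 147 pairs and 38 interactions. With the replicate number as a block 25 members passed over all kept cells and 132 pairs by type; beside the calls named with their results it added 8 pairs and changed no other call. No replicate block was fitted for shares, or for interactions and WT types, whose fits already held each sample as a block.

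Log2 fold changes changed sign for members that had not passed: with cells thinned, Rpe 0.0062, Prps1 0.026 and Pfkl 0.082; with equal cells per type, Slc2a6 0.25, Pfkfb1 -0.32, Gpi1 0.0026, Hk1 -0.023, Slc16a3 0.028 and Pfkp 0.014; in cells with no division-gene UMI, Prps1 0.17 and Pfkfb1 -0.094. Without 1 sample they ranged from -0.015 (WT 2; -0.00463 without Txnip-KO 2) to 0.14 for Pfkfb1, -0.019 (Txnip-KO 2) to 0.035 for Pdha1 and -0.37 to 0.11 (Txnip-KO 2) for Slc16a3. Pdha1 was also -0.00298 with DESeq2 size factors, -0.00284 by the Wald test, -0.023 without a filter on low counts, -0.016 without doublet removal and -0.011 under a stricter cell filter. Shares, Txnip-KO minus WT in percentage points, changed sign for Slc2a6 (0.983), Pfkp (3.45) with equal cells per type, and for Pfkl (2.83), Ldha (1.31) and Ldhb (-1.31) in cells with no division-gene UMI. Without 1 sample they ranged from -1.36 to 0.270 for Hk3, -3.317 to 1.62 for Pfkl, -3.81 to 1.90 for Pfkp, -0.463 to 0.165 for Ldha and -0.1649 to 0.463 for Ldhb. The cause was not tested.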
